A study of Mus musculus with 24 samples.

Results

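The 10 genes described here encode proteins of elastic fibres and of the microfibrils on which they are built, namely the fibrillins Fbn1 and Fbn2, the microfibril-associated proteins Mfap2, Mfap4 and Mfap5, tropoelastin (Eln), the fibulins Fbln1, Fbln2 and Fbln5, and Emilin1. They were chosen by symbol, from earlier results of these data in which Mfap4 was among the genes that differed most between hip cap and metatarsal controls. Each matched 1 identifier among the 52178 genes of the count table, and all 10 were among the 21283 genes kept by the filter on low counts.

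Elastic fibres have a core of crosslinked elastin on a scaffold of microfibrils, which are strings of fibrillin molecules with further glycoproteins bound to them. Fibrillin microfibrils also occur without elastin, for instance in the matrix around chondrocytes and in the perichondrium, and they hold latent TGF-beta and bone morphogenetic proteins. Fbn2 is best known from developing tissues, whereas Fbn1 is made throughout life.

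RNA was sequenced from 2 kinds of mouse cartilage kept in culture, with 4 libraries in each of 6 groups. Hip caps, the cartilage of the femoral head, came from male C57/BL6 mice 4 weeks old (C57/BL6J in the study's methods), and a sample held the 2 hip caps of 1 mouse. Metatarsals came from embryos of the same strain at day 15 of gestation, and a sample pooled 6 of the whole bones. After 24 h in culture the tissues were left at 0 MPa (control) or put under hydrostatic pressure of 5 MPa or 50 MPa for 1 h, and RNA was taken 24 h later. The hip caps were cultured in DMEM with GlutaMAX and the metatarsals in αMEM with albumin, β-glycerophosphate and ascorbate. The labels name no genetic alteration. Tissue, age, sex and medium differed together between hip caps and metatarsals, and their parts in any difference between the tissues cannot be told apart.

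The study left out hip cap control 4 and hip cap replicate 2 at 50 MPa as outliers, and the results are from the other 22 libraries unless stated. Total counts ranged from 4185557 to 25104484 over the 24 libraries, and levels are given as CPM, the counts of a gene relative to the total of its library, scaled by edgeR's TMM factors. The sequencing runs, which are read from a colour strip in the study's heat map and are therefore uncertain, and the library types were unevenly spread. The 8 libraries at 5 MPa share run 2 and a stranded library type, the 3 hip cap controls used are from run 1, and the 3 hip cap libraries at 50 MPa are from run 1 and unstranded. Among the metatarsals, control 1 was from run 1, and replicate 4 at 50 MPa was from run 1 and unstranded. Of the hip cap controls used, control 3 was unstranded. Both batches were terms of the fit. By the study's methods the RNA was partly degraded in all samples. The 8 chondrocyte markers (Col2a1, Acan, Sox9 and others) were detected in every group, at a summed 21700 to 76700 CPM in hip caps and 1870 to 4960 CPM in metatarsals.

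Upstream sequence was searched for 6 of the 10 genes, in 9 windows of the 250 bases before an annotated RefSeq start (build GRCm38.p6). No window of Mfap4, Mfap5, Fbn2 or Eln was searched, and windows on the chromosome of Fbn2 were left out. The sequence is shown for Mfap2 and Fbln5, which were lower in hip caps, and for Emilin1, which was higher. Capitals mark GC boxes (GGGCGG on either strand), the binding motif of the Sp family of transcription factors.
Mfap2, chr4:141010431-141010680, plus strand: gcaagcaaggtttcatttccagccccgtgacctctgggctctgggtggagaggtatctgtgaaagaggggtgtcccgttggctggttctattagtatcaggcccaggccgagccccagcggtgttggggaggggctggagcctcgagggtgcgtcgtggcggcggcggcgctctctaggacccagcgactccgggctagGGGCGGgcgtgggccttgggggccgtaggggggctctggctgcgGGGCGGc
Fbln5, chr12:101819120-101819369, minus strand: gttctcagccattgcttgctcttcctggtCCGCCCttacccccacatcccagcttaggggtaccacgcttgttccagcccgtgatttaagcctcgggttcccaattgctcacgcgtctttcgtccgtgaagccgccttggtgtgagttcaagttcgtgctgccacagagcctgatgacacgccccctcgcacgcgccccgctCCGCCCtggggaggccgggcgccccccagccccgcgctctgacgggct
Emilin1, chr5:30913536-30913785, plus strand: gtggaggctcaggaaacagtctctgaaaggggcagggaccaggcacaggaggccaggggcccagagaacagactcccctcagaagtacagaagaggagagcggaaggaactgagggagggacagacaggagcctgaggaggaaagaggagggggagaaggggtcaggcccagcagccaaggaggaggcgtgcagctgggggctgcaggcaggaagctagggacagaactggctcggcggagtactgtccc

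The windows shown for Mfap2 and Fbln5 hold 2 GC boxes each, and that of Emilin1 holds none. Mfap2 and Fbln5 each have another window, before another start (chr4:141010174-141010423 and chr12:101818485-101818734), which holds none either. The window of Fbn1, which was not called between the tissues, and that of Fbln2, which was lower in hip caps, hold 1 GC box each. Fbln1, also lower, has overlapping windows, with 1 GC box in chr15:85205758-85206007 and none in chr15:85205699-85205948. Over the 9 windows, 5 hold a GC box, against 32.7% of 32851 windows of the same length before RefSeq starts. A CCAAT box (CCAAT) is in 2 of the 9, against 33.8% of all windows, and an E-box (CANNTG) in 6, against 66.2%. No window of the 6 genes holds a TATA box (TATAAA, in 12.4% of all windows) or an AP-1 site (TGANTCA, in 6.7%). Each motif was searched on both strands, and a match of letters is a description of the sequence only.

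In the controls, 7 of the 10 genes were lower in every hip cap library than in every metatarsal library, and Emilin1 was higher in every one. Of all genes tested, 22.8% lay entirely lower in hip caps in this comparison, on which the genes were chosen, so its values are given without a test. The share of all genes lying entirely higher in hip caps was not counted at any pressure. The median log2 fold change (log2 FC) of hip caps against metatarsals was -3.93 over the 10 genes and -0.08 over all genes tested. Mfap4 (ENSMUSG00000042436), whose protein binds tropoelastin and fibrillin, had 0, 3 and 2 counts in hip cap controls 1 to 3, or 0.0, 0.477 and 0.191 CPM. The 4 metatarsal controls had 105, 151, 166 and 145 CPM, so the groups were far apart, and a fitted fold change would depend on the few hip cap counts. Fbn2 (ENSMUSG00000024598) had 4.62, 1.91 and 0.953 CPM in hip cap controls and 398, 454, 462 and 564 CPM in metatarsal controls, a log2 FC of -7.83. Eln (ENSMUSG00000029675), the precursor of elastin, had 0.544, 1.27 and 1.14 CPM in hip cap controls and 45.5, 85.6, 62.3 and 65.5 CPM in metatarsal controls (log2 FC -5.85). Emilin1 (ENSMUSG00000029163), a glycoprotein at the border of elastin and microfibrils, had 549, 349 and 550 CPM in hip cap controls and 83.6, 99.2, 110 and 98.3 CPM in metatarsal controls. It was the one gene of the 10 that lay entirely above the metatarsals, with a log2 FC of 2.16.

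**Figure D1:**
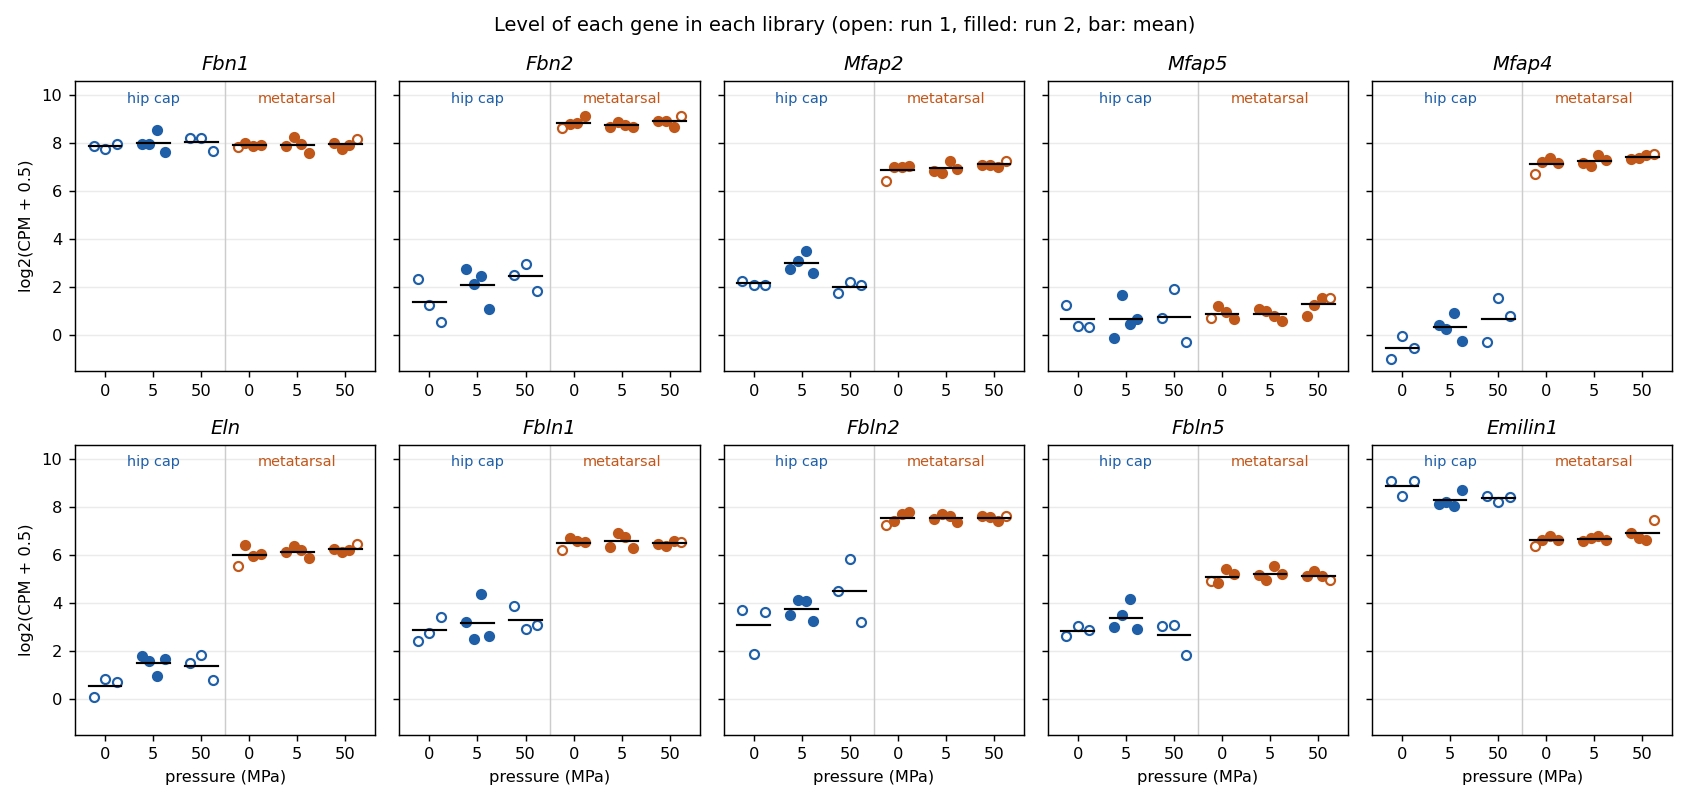
Level of each of the 10 genes in each of the 22 libraries, as log2(CPM + 0.5) on the vertical axis against tissue and pressure on the horizontal axis. Points are libraries (open from run 1, filled from run 2) and bars are means. Fbn1 and Mfap5 overlap between the tissues, Emilin1 is higher in hip caps, and the other 7 are lower in hip caps at each pressure.

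The same contrast was tested in libraries other than the controls, although the genes were chosen with earlier results of these data known. At 5 MPa, where all 8 libraries share the run and library type, 7 of the 10 genes were lower and 1 was higher in hip caps at an adjusted p of at most 0.05 in edgeR's quasi-likelihood test. Of all genes tested, 19.1% were called lower and 18.8% higher, and 21.5% lay entirely lower in hip caps. The median log2 FC was -3.55 over the 10 genes and -0.08 over all genes. These libraries come from the same 2 tissues as the controls, so the test is a repeat in other samples and not evidence of another kind. In these whole tissues, fewer cells that express a gene and less RNA per cell cannot be told apart.

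The fibrillins, which form the backbone of the microfibril, diverged from each other. Fbn1 (ENSMUSG00000027204) had 248, 251, 380 and 197 CPM in hip caps at 5 MPa and 240, 307, 249 and 195 CPM in metatarsals. Its groups overlapped, and the log2 FC was 0.12 (standard error (SE) 0.18, adjusted p = 0.632). Fbn2 had 6.31, 3.87, 5.05 and 1.61 CPM in hip caps and 409, 468, 437 and 405 CPM in metatarsals. Every hip cap library was far below every metatarsal library, and the log2 FC was -6.68 (SE 0.42, adjusted p = 5.18e-10), or 102-fold lower. Per kilobase of the longest annotated transcript, Fbn2 made up 1.65% ± 0.755 (SD, n = 4) of the 2 fibrillins in hip caps at 5 MPa and 65.5% ± 2.85 (n = 4) in metatarsals. The share was 1.15% ± 0.865 (n = 3) in hip cap controls and 2.05% ± 0.536 (n = 3) at 50 MPa. In metatarsals it was 67.5% ± 2.70 (n = 4) in controls and 67.6% ± 2.81 (n = 4) at 50 MPa. The share depends on the transcript length used: with the median annotated length, which is 640.5 bases for Fbn2 against 11041 for its longest transcript, it was 18.8% in hip caps at 5 MPa and 96.4% in metatarsals.

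The microfibril-associated proteins behaved unlike one another. Mfap4 had 0.834, 0.703, 1.39 and 0.342 CPM in hip caps at 5 MPa, from 7 to 27 counts, and 145, 131, 184 and 159 CPM in metatarsals. It was 187-fold lower in hip caps, with a log2 FC of -7.55 (SE 0.39, adjusted p = 4.49e-11). Mfap2 (ENSMUSG00000060572), which binds fibrillin and tropoelastin, had 6.31, 8.02, 10.9 and 5.62 CPM in hip caps and 114, 109, 153 and 122 CPM in metatarsals. Its log2 FC was -4.01 (SE 0.19, adjusted p = 1.94e-12), smaller than that of Mfap4, with groups just as clearly apart. Mfap5 (ENSMUSG00000030116), the close relative of Mfap2, was scarce in both tissues. It lay between 0.417 and 2.67 CPM in hip caps and between 1.02 and 1.62 CPM in metatarsals at 5 MPa, from 7 to 38 counts a library. Its log2 FC of -0.12 had a SE of 0.49 (adjusted p = 0.869), so a moderate difference in either direction could not be seen at this depth.

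Eln had 2.98, 2.46, 1.44 and 2.64 CPM in hip caps at 5 MPa and 69.8, 82.0, 73.2 and 57.8 CPM in metatarsals. The groups were again well apart, with a log2 FC of -4.89 (SE 0.22, adjusted p = 9.36e-13), or 29.7-fold lower in hip caps.

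All 3 fibulins of the group were lower in hip caps. Fbln2 (ENSMUSG00000064080), a matrix protein that also occurs in basement membranes, had 9.08 to 16.7 CPM in hip caps and 164 to 206 CPM in metatarsals, a log2 FC of -3.82 (SE 0.44, adjusted p = 2.36e-06). Fbln1 (ENSMUSG00000006369), a component of elastic fibres and basement membranes, had 5.06 to 20.2 CPM against 76.7 to 122 CPM. Its log2 FC was -3.28 (SE 0.35, adjusted p = 9.41e-07). Fbln5 (ENSMUSG00000021186), which binds tropoelastin and is needed for elastic fibres to assemble, had 6.98 to 17.4 CPM against 30.9 to 46.2 CPM and the smallest difference of the 3, a log2 FC of -1.81 (SE 0.25, adjusted p = 8.22e-06). Emilin1 went the other way. It had 281, 296, 264 and 415 CPM in hip caps and 96.6, 103, 111 and 97.9 CPM in metatarsals, with no overlap. It was 3.07-fold higher in hip caps (log2 FC 1.62, SE 0.17, adjusted p = 1.01e-07).

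At 50 MPa, 7 of the 10 genes were again called lower and Emilin1 higher, where 9.58% of all genes tested were called lower and 10.1% higher, and 21.4% lay entirely lower. The log2 FCs ran from -6.93 for Mfap4 (SE 0.49, adjusted p = 1.64e-08) to 1.06 for Emilin1 (SE 0.24, adjusted p = 0.00321), with -6.35 for Fbn2 and -5.07 for Eln. At this pressure run and library type separate the hip caps from all metatarsal libraries but replicate 4. Without that library 5 of the 10 were called, as Mfap4 (log2 FC -5.74, adjusted p = 0.172), Fbln2 (-2.91, adjusted p = 0.155) and Fbln5 (-2.19, adjusted p = 0.098) lost the call. In that fit 570 of all 21113 genes tested were called higher and 488 lower, against 2160 and 2038 of 21283 with the library. With it the log2 FCs of Fbln2 and Fbln5 were -2.75 and -2.20, so these hardly moved. Scaled by library size without TMM factors, Emilin1 had a log2 FC of 0.11 (adjusted p = 0.804), as the median of all genes moved to -0.90. Over all 24 libraries it was 0.63 (adjusted p = 0.367).

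**Figure D2:**
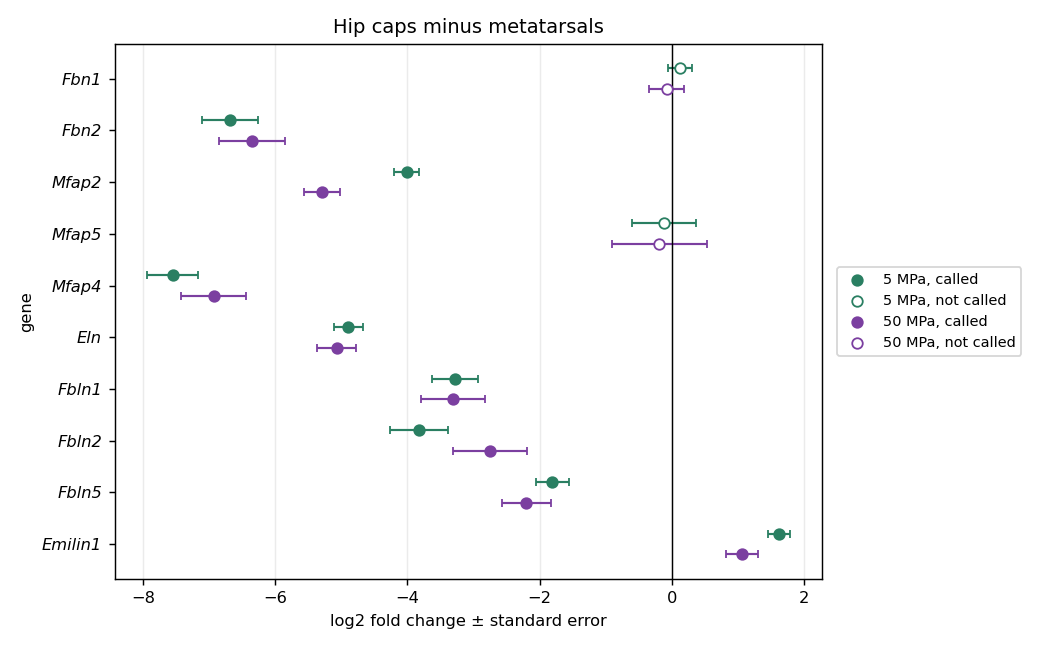
Log2 fold change of hip caps against metatarsals (horizontal axis) for each of the 10 genes (vertical axis), at 5 MPa (green) and 50 MPa (purple). Points are the fitted values, bars the standard errors, and filled points passed the threshold. Mfap4 lies farthest to the left, at -7.55 and -6.93, and Emilin1 is the one called gene to the right of 0.

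Markers of other cells differed between the tissues with these genes. The 8 markers of fibroblasts and perichondrium (Col1a1, Col1a2, Col3a1, Pdgfra, Pdgfrb, Thy1, Dpt and Postn) summed to between 1370 and 9600 CPM in hip caps at 5 MPa and between 6600 and 8590 CPM in metatarsals, and 4 of the 8 were called lower in hip caps. None was at 0 in a whole group. Hip cap replicate 3 at 5 MPa had the 9600 CPM, above every metatarsal library at that pressure. In that same library Mfap2 (10.9 CPM), Fbn1 (380 CPM), Fbln1 (20.2 CPM) and Fbln5 (17.4 CPM) were at their highest of the 10 hip caps used. Emilin1 (264 CPM) was at its lowest. The other 5 genes were inside the range of the other hip caps used, with Mfap4 at 1.39 CPM, Fbn2 at 5.05 CPM and Eln at 1.44 CPM. It also had the lowest chondrocyte sum of the hip caps used (21700 CPM). The 8 calls at 5 MPa were made without it as well. The 6 skeletal muscle markers summed to 7.34 to 40.2 CPM over the hip caps and 419 to 2440 CPM over the metatarsals, and all 6 were called lower in hip caps at 5 MPa. In hip cap controls and at 50 MPa Myog was at 0. Among metatarsals the library with the most muscle RNA (control 4, 2440 CPM) had 145 CPM of Mfap4, and the library with the least (replicate 4 at 50 MPa, 419 CPM) had 185 CPM. These libraries also differed in pressure, run and library type. The 4 tendon markers were also called lower, with sums of 18.4 to 22.5 CPM against 79.2 to 135 CPM, and Kera was at 0 in hip caps at 5 MPa. The sums of the smooth muscle, endothelial and macrophage markers overlapped between the tissues at 5 MPa. Of the 4 smooth muscle markers tested, 2 were called higher in hip caps and 1 lower. Of the 4 macrophage markers 2 were called higher and 0 lower, and 0 of the 5 endothelial markers were called. The 5 osteoblast markers were called higher in hip caps, with sums of 895 to 1210 CPM against 75.6 to 252 CPM, as were the 8 chondrocyte markers. The part of these other cells in the levels of the 10 genes was not tested.

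Ordered by level per kilobase of the longest transcript, the most abundant of the 10 in metatarsal controls was Mfap2 at 110 CPM per kilobase, whose range overlapped that of Mfap4 at 80.1. Fbn2 at 42.5 and Fbln2 at 39.2 came next and overlapped each other, and Emilin1, Fbln1, Fbn1 and Eln followed between 25.4 and 16.8 with overlapping neighbours. Fbln5 at 5.79 and Mfap5 at 0.55 stood apart at the bottom. In hip cap controls the order began with Emilin1 at 125 CPM per kilobase and Fbn1 at 19.6, each clear of the next, and Mfap2 at 3.72. The 3 fibulins followed between 1.92 and 1.15, and Mfap5, Eln, Fbn2 and Mfap4, between 0.463 and 0.126, overlapped their neighbours. Fbn1 therefore stood second in hip caps at much the same level at which it stood seventh in metatarsals (20.3). With the median transcript length in place of the longest, Fbn2 came first in metatarsal controls at 733 and Fbln2 next at 281. Summed over the 10 genes the level was 591 to 839 CPM in hip cap controls and 1200 to 1600 CPM in metatarsal controls.

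The genes whose pattern over the 22 libraries lay nearest to that of a member were found by the root mean square difference of centred log2 CPM, among 14194 genes with a mean of at least 1 CPM. The nearest to Mfap4 was Fbn2, at 0.87, followed by Ptn, Crabp1, Aspn and Actc1, the last of which is one of the 6 skeletal muscle markers. The median over all genes was 3.98, and Eln ranked 28th and Mfap2 68th. The nearest to Fbn2 were Hoxd13 (0.52), Aspn, Gpc3, AW551984 and Dlk1. Those nearest to Emilin1 were Slc38a10 (0.20), Msrb2, Ncoa3, Rpn2 and Iqsec1. All these distances mostly reflect the difference between the tissues, which the libraries share, and they are given as a description.

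Other genes of elastic fibre assembly were taken from lists of 32 genes, of which 30 were tested. At 5 MPa 13 of the 30 were called higher in hip caps, 12 lower, and 5 were not called, with a median log2 FC of 0.35. Both directions occurred in each family except the other emilins, of which 2 of 3 were lower and 0 higher. Among the lysyl oxidases, which crosslink elastin and collagen, Loxl4 was higher (log2 FC 4.96, SE 0.48, adjusted p = 4.68e-07), as was Loxl3 (1.76), and Loxl1, the member tied to elastic fibres, was lower (-2.07, SE 0.37, adjusted p = 0.00026). Loxl4 made up 81.8% ± 14.0 (SD, n = 4) of Loxl4 and Loxl1 per kilobase in hip caps at 5 MPa and 3.45% ± 2.31 (n = 4) in metatarsals. Among the relatives of Emilin1, Emilin3 was lower (-4.42, SE 0.29, adjusted p = 6.3e-10), opposite to Emilin1. Emilin3 made up 1.17% ± 0.766 (n = 4) of Emilin3 and Emilin1 in hip caps and 41.4% ± 2.13 (n = 4) in metatarsals.

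**Figure D3:**
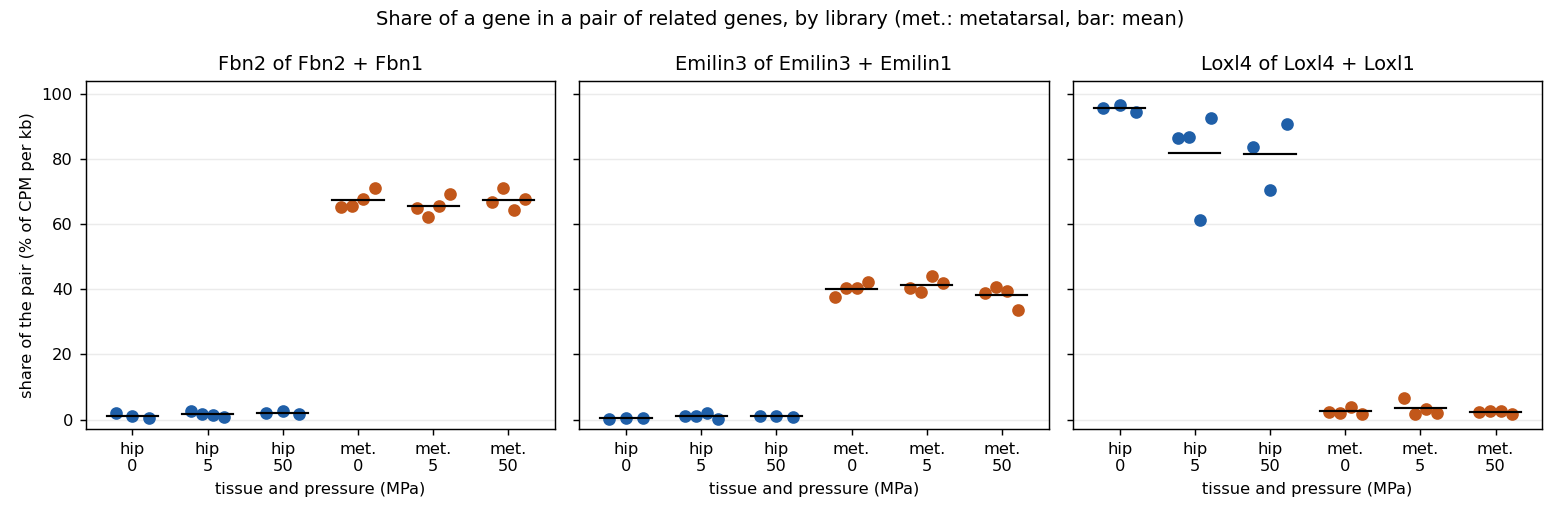
Share of Fbn2 among the fibrillins Fbn2 and Fbn1, of Emilin3 among Emilin3 and Emilin1, and of Loxl4 among Loxl4 and Loxl1, in percent of CPM per kilobase of the longest transcript (vertical axis), in each library by tissue and pressure (horizontal axis). Points are libraries and bars are means. Within each pair the shares of hip caps and metatarsals do not overlap, and the shares of Fbn2 in metatarsals stay between 62.3% and 71.2%.

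Of the other fibulins, Fbln7 was higher in hip caps (3.45, SE 0.22, adjusted p = 1.15e-10) and Hmcn1, a very large relative, was lower (-1.84). Efemp2, fibulin 4, which brings lysyl oxidase to tropoelastin, was higher (1.14, SE 0.12, adjusted p = 2.11e-07). In the ADAMTS family, whose members shape fibrillin microfibrils, Adamtsl2 was higher (4.67, SE 0.41) and Adamts17 lower (-2.61, SE 0.19). Tgfb1, the growth factor stored on microfibrils through its binding proteins, was higher (2.89, SE 0.21, adjusted p = 6.24e-10), and the other ligands Tgfb2 (-0.94, SE 0.12) and Tgfb3 (-0.95, SE 0.18) were lower. The binding protein gene Ltbp4 was lower (-2.51, SE 0.23). The proteases that can cleave elastin were split likewise, with Mmp9 (4.80) and Mmp12 (1.76) higher and Mmp2 (-1.85) lower. At 50 MPa 11 of the 30 were called higher, 9 lower and 10 were not called.

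**Figure D4:**
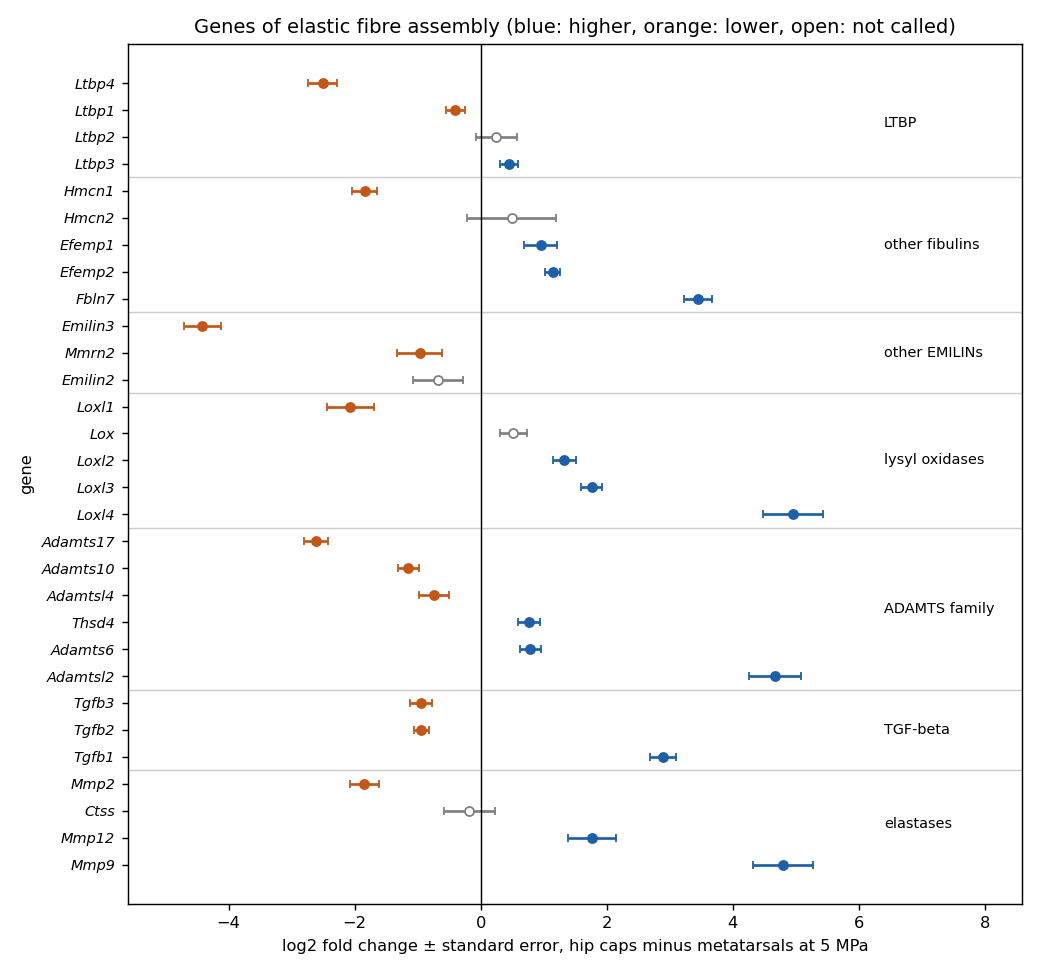
Log2 fold change of hip caps against metatarsals at 5 MPa (horizontal axis) for the 30 tested genes of elastic fibre assembly (vertical axis), grouped by family. Points are fitted values and bars standard errors. Of the genes 13 are higher (blue), 12 lower (orange) and 5 not called (open), with Loxl4 at 4.96 and Emilin3 at -4.42 the outermost.

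Pressure was then compared with control within each tissue. In metatarsals none of the 10 genes was called at 5 MPa or 50 MPa, and neither was any other gene in edgeR's quasi-likelihood test (0.0% of genes tested at 5 MPa and 0.0% at 50 MPa). An unadjusted p under 0.05 was reached by 689 and 828 of all genes. DESeq2 called 3 genes higher and 10 lower at 5 MPa and 2 higher and 7 lower at 50 MPa. The fit on metatarsal libraries alone called 2 higher and 10 lower at 5 MPa and 1 higher and 5 lower at 50 MPa, with 2241 and 2184 genes at an unadjusted p under 0.05. None of these calls was of the 10 genes. The log2 FCs of the 10 ran from -0.11 to 0.09 at 5 MPa and from -0.20 to 0.52 at 50 MPa. The SE was 0.17 to 0.18 for Mfap2 and 0.30 to 0.31 for Mfap4.

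In hip caps at 5 MPa none of the 10 genes was called, where 0.0188% of all genes tested were. That background was unstable: without control 2 alone 872 of all genes were called higher and 385 lower, and DESeq2 called 408 higher and 169 lower. Mfap2 and Eln nevertheless lay entirely above the controls, as 16.2% of all genes tested lay entirely apart in either direction. Mfap2 had 4.35, 3.82 and 3.81 CPM in controls and 5.62 to 10.9 CPM at 5 MPa (log2 FC 0.75, SE 0.30, adjusted p = 0.253). Eln had 0.544, 1.27 and 1.14 CPM in controls and 1.44 to 2.98 CPM at 5 MPa (0.97, SE 0.39, adjusted p = 0.261). All these controls were from run 1 and all libraries at 5 MPa from run 2, and pressure and run cannot be told apart within hip caps. Control 4, which the study left out and which was from run 2, had 10.4 CPM of Mfap2 and 4.37 CPM of Eln when all 24 libraries were scaled together. Control 4 also stood apart in its markers, with 9010 CPM of chondrocyte, 6750 CPM of fibroblast and 275 CPM of macrophage markers, where the 3 controls used had 48200 to 76700, 1360 to 2390 and 22.6 to 39.0 CPM on their own scale. Scaled with all 24, the hip cap libraries used, at any pressure, reached 10.5 CPM of Mfap2 and 2.96 CPM of Eln. With control 4 and the other left-out library in the fit, the log2 FC of Eln was -0.19. Of the alternatives run, both genes passed the threshold only without batch terms (adjusted p = 0.0146 for Mfap2 and 0.0377 for Eln) or with library type as the only batch term (0.0226 and 0.0457).

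In hip caps at 50 MPa 1 of the 10 genes, Emilin1, was called, and it was lower, where 5.18% of all genes tested were called. It had 355, 295 and 339 CPM at 50 MPa against 549, 349 and 550 CPM in controls, and control 2 lay inside the range of the pressed hip caps. The log2 FC was -0.92 (SE 0.24, adjusted p = 0.0347), but the call was lost without single libraries while the direction stayed. The log2 FC was -1.45 without control 3 (adjusted p = 0.219), where 1 of all 22039 genes tested was called, and -0.90 without replicate 3 at 50 MPa (adjusted p = 0.0741). It was -0.79 without metatarsal control 1 (adjusted p = 0.0834) and -0.79 without metatarsal replicate 4 at 50 MPa (adjusted p = 0.0818), libraries that bear on the batch terms. With hip cap libraries alone it was -0.71 (adjusted p = 0.483, with 0 of all genes called and 1934 at an unadjusted p under 0.05), and with those of run 1 alone, an alternative chosen after seeing the data, -0.55 (adjusted p = 0.531). Scaled with all 24 libraries, left-out control 4 had 245 CPM of Emilin1 and left-out replicate 2 at 50 MPa had 96.6 CPM. The hip cap libraries used had 256 to 534 CPM on that scale. With both left-out libraries in the fit the log2 FC was -1.02 (adjusted p = 0.233). At 5 MPa the log2 FC of Emilin1 was -0.49 (SE 0.26, adjusted p = 0.394). The 8 chondrocyte markers summed to 48200 to 76700 CPM in hip cap controls, 21700 to 52200 CPM at 5 MPa and 32300 to 36800 CPM at 50 MPa, and 2 of the 8 were called lower at 50 MPa. The 5 osteoblast markers summed to 1120 to 2140 CPM in controls, 895 to 1210 CPM at 5 MPa and 607 to 787 CPM at 50 MPa. Of these 1 was called lower at 50 MPa. The part of these cells in the level of Emilin1 was not tested.

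Of the other 9 genes in hip caps at 50 MPa none was called and all overlapped with the controls. The share of all genes lying apart was not counted in this comparison. The 3 with the highest log2 FC were Mfap4, Fbn2 and Fbln2, whereas Mfap2 (-0.36), Fbln5 (-0.03) and Fbln1 (0.06) had values near or below 0. Mfap4 had 0.316, 2.43 and 1.24 CPM, from 3, 35 and 4 counts, against 0.0 to 0.477 CPM in controls (log2 FC 2.29, SE 0.83, adjusted p = 0.109). Fbn2 had 5.27, 7.42 and 3.09 CPM against 0.953 to 4.62 CPM (1.64, SE 0.63, adjusted p = 0.129). Fbln2 had 22.4, 56.3 and 8.67 CPM against 3.18 to 12.5 CPM (1.39, SE 0.62, adjusted p = 0.194), and replicate 3 held the highest value of each of these 3 genes. Without replicate 3 the log2 FC was 0.92 for Mfap4 and 0.47 for Fbln2, and without control 3 it was 0.23 for Fbn2. Other omissions brought a call. Mfap4 was called without replicate 1 (2.81, adjusted p = 0.0231), where 719 of all genes were called higher and 311 lower. Fbn2 was called without control 1 (2.0, adjusted p = 0.0472), with 830 and 459 of all genes. Fbln2 was called without replicate 4 (1.79, adjusted p = 0.0413), with 933 and 750. DESeq2 called Mfap4 (adjusted p = 0.0262) and Fbn2 (0.0235) higher in this comparison. It called 1540 of all 21283 genes higher and 915 lower, where the main fit called 706 and 396. The macrophage markers summed to 73.6 to 90.2 CPM at 50 MPa against 22.6 to 39.0 CPM in controls, with 0 of 4 called. The skeletal muscle markers summed to 25 to 40.2 CPM against 7.34 to 11.3 CPM, with 1 of 6 called higher, as was 1 of the 4 smooth muscle markers tested. The part of these cells in the values was not tested. Of the 30 tested genes of elastic fibre assembly, 1 was called higher at 50 MPa, the macrophage elastase Mmp12 (2.66, adjusted p = 0.0277), and 1 lower, Ltbp3 (-0.85, adjusted p = 0.0335). At 5 MPa in hip caps and at both pressures in metatarsals 0 of the 30 were called.

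The difference of the responses between the tissues was tested as an interaction. At 5 MPa 0.0188% of all genes tested and none of the 10 passed. At 50 MPa 0.132% of all genes passed and again none of the 10, with Emilin1 nearest to the threshold at a log2 difference of -1.10 (SE 0.27, adjusted p = 0.0652). It passed with DESeq2 (adjusted p = 0.0041) and with either other filter on low counts (0.0395 without one and 0.0354 with at least 10 counts in every library). More of all genes passed in these fits than the 17 higher and 11 lower of the main fit. DESeq2 called 854 higher and 495 lower of 21283 genes. Without a filter these were 51 and 45 of 42695, and with at least 10 counts 298 and 202 of 10934. For Mfap4 the difference was 2.09 (SE 0.85, adjusted p = 0.20) and for Fbn2 it was 1.49 (SE 0.64, adjusted p = 0.224). Since the hip cap and metatarsal controls each serve both pressures, the comparisons at 5 MPa and 50 MPa share samples.

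**Figure D5:**
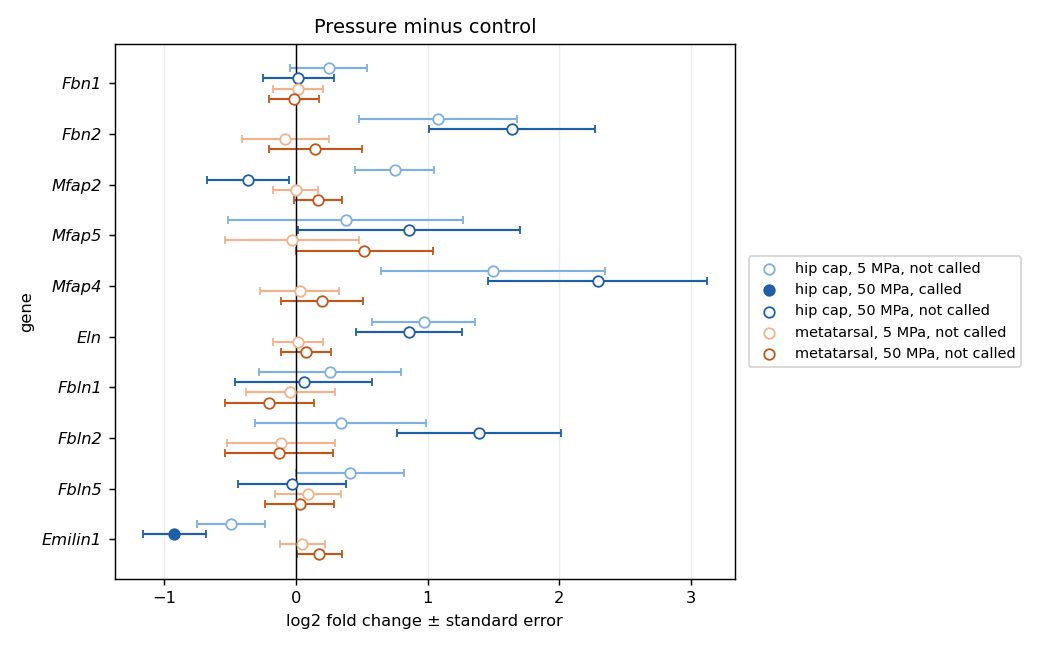
Log2 fold change of pressure against control (horizontal axis) for each of the 10 genes (vertical axis), in hip caps (blue) and metatarsals (orange), with light colours for 5 MPa and dark colours for 50 MPa. Points are fitted values, bars standard errors, and the filled point passed the threshold. Metatarsal values lie between -0.20 and 0.52 and hip cap values between -0.92 and 2.29, and the filled point is Emilin1 in hip caps at 50 MPa.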

How the data were processed

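Total RNA was depleted of ribosomal RNA and sequenced from 24 libraries. The authors trimmed reads with Trim Galore 0.6.5, assigned them to transcripts with kallisto (GRCm39 per the labels) and summed them per gene. The deposited values are estimated counts of 52178 genes, which were rounded to whole numbers. The 22 libraries that the study used were fitted with edgeR 4.0.16 (limma 3.58.1, R 4.3.3), with filterByExpr, TMM factors, robust quasi-likelihood dispersions and terms for group, run and library type. Tests were two-sided, adjusted by the Benjamini-Hochberg method over 21283 genes, with a threshold of 0.05. The alternatives included DESeq2 1.42.0. The fit was tested on simulated counts with no effect of run or library type and with changes only in genes of higher counts. That test therefore does not bear on the batches or on genes with few counts. The genes, their lists and the markers were chosen with earlier results of these data known. The rule for names took all 10 genes, called genes among the 6 highest and 6 lowest of the assembly lists, and the 5 nearest genes to Mfap4, Fbn2 and Emilin1, and Efemp2 and the pairs of related genes were added after values were seen. Tgfb2 and Tgfb3 were also named outside that rule. Transcript lengths came from GENCODE M21. Whether pooled metatarsal samples share litters is not stated, so p-values measure the spread between samples, which may be technical. Total counts of 4185557 to 25104484 set the precision.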

Additional observations from a re-analysis of the deposited data

Results flagged for a closer look

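Mfap2 in metatarsal control 1 was 85.8 CPM, where the other 3 metatarsal controls lay between 127 and 132 CPM, a gap of 0.90 of the whole range, above the limit of Dixon's test for 4 libraries. It was the one such value among 40 sets of 4 libraries, where chance gives about 1 in 20. Control 1 was also the lowest metatarsal control for Mfap4, Fbn1, Fbn2, Eln, Fbln1, Fbln2 and Emilin1, but not for Mfap5 or Fbln5. Summed over the members it had 1200 CPM, where the other metatarsal controls had 1480, 1510 and 1600 CPM. It was the shallowest library (4185557 counts) and the one metatarsal control from run 1.

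The other flagged values come from the 2 hip cap libraries that the study left out, scaled with all 24 libraries, and are those above the 3 hip cap controls it used. Hip cap replicate 2 at 50 MPa had 79.0 CPM of Fbn2, where the 10 hip cap libraries used had 0.924 to 7.20 CPM. It also lay above them all for Eln (11.7 CPM, against 2.96 at most) and Mfap4 (6.07 CPM, against 2.36 at most). Its chondrocyte markers summed to 13700 CPM and its skeletal muscle markers to 101 CPM, where the hip caps used had 21700 to 76700 and 7.34 to 40.2 CPM on the scale of the 22 libraries. Its values of Fbln2 (32.3 CPM), Fbln1 (13.2 CPM) and Mfap2 (5.16 CPM) were above the controls used but inside the range of the hip caps used. Not flagged by that rule, its Fbn1 (118 CPM) and Emilin1 (96.6 CPM) lay below all hip caps used (191 and 256 CPM at least). Hip cap control 4 lay above all 10 hip cap libraries used for Fbn1 (378 CPM), Fbln1 (32.0 CPM), Eln (4.37 CPM) and Mfap4 (2.53 CPM). Its values of Fbln2 (21.0 CPM), Mfap2 (10.4 CPM) and Mfap5 (2.66 CPM) were above the controls used only. Its Fbn2 level of 2.66 CPM stayed inside the range of those controls. Its Emilin1 level of 245 CPM lay below all hip caps used (256 CPM at least). Control 4 had 9010 CPM of chondrocyte, 6750 CPM of fibroblast and 275 CPM of macrophage markers. The part of the cell makeup in the values of both libraries was not tested.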

How the results depend on the processing

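The 8 calls between tissues at 5 MPa were made in every fit in which all 10 genes were tested, over each of the 22 libraries left out in turn (8 to 8) and in the 8 libraries at 5 MPa alone. With at least 10 counts in every library Mfap4, Mfap5 and Eln were not tested and 6 of 7 genes were called. At 50 MPa the count ran from 5 to 8 with single libraries left out. It was 5 without metatarsal replicate 4 at 50 MPa, where 570 of all genes were called higher and 488 lower, against 2160 and 2038 in the main fit. For hip caps at 50 MPa the main fit made 1 call, with 706 of all genes called higher and 396 lower. The count became 0 with library sizes alone (37 and 7 of all genes), over all 24 libraries (2 and 0) and with run as the only batch term (410 and 356). It was also 0 with hip cap libraries alone and with those of run 1 alone (0 and 0 in both). With DESeq2 it was 3 (1540 and 915). With single libraries left out the count ran from 0 to 2. It was 2 without control 1 (830 and 459) or replicate 1 (719 and 311) or 4 (933 and 750) at 50 MPa. Without batch terms the 1 call was Fbln2, not Emilin1. For hip caps at 5 MPa the 0 became 2 without batch terms, where 944 of all 21283 genes were called higher and 1083 lower, and with library type as the only batch term, where 572 were called higher and 590 lower. The interaction at 50 MPa went from 0 to 1 (Emilin1) with DESeq2, without the filter, with at least 10 counts in every library and with the replicate block, and ran from 0 to 1 with single libraries left out. The named alternatives also called more of all genes, as 143 higher and 56 lower with the replicate block, against 17 and 11 in the main fit.

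In the controls the median log2 fold change of -3.93 moved to -4.83 with library sizes alone, which moved that of all genes to -0.97, and to -3.21 over all 24 libraries. Fbn1 and Mfap5, which were not called between tissues, turned direction. Mfap5 was 0.32 in controls and 0.05 at 50 MPa over all 24 libraries, and without single libraries ran from -1.31 to 0.14 in controls, -0.68 to 0.24 at 5 MPa and -1.28 to 0.99 at 50 MPa. Fbn1 was 0.24 in controls over all 24 libraries, -0.51 at 5 MPa with library sizes alone, and 0.08 and 0.0 at 50 MPa without batch terms and with run alone, and without single libraries ran from -0.02 to 0.32 at 5 MPa and from -0.21 to 0.08 at 50 MPa. In hip caps at 5 MPa Eln was -0.19 over all 24 libraries and Emilin1 0.04 with library sizes alone. The causes were not tested. Replicate numbers did not pair the samples (correlations of -0.288 to 0.171), and the replicate block changed no other call count by over 1.5 times. Depth limits Mfap4, Eln, Fbn2 and Mfap5 in hip caps, where single libraries held 0 to 17 counts in controls.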
